A study of Mus musculus with 9 samples.

Results

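The glomerular capillary endothelium was described through 10 genes: Ehd3, Plvap, Cdh5, Pecam1, Sox17, Sox18, Gata5, Tbx3, Nos3 and Vwf. They were taken by symbol, as glomerular and general endothelial markers and transcription factors, from a deposited table of 16867 genes, and all 10 were in it. Each of the 10 also passed the filter on low values, which asked for 10 or more in no fewer than 4 libraries and left 16764 genes for the tests. Poly(A) RNA had been sequenced from isolated glomeruli, the capillary tufts that filter blood in the kidney, of 9 male C57BL/6 mice. The 4 Cosmc KO animals carried Podo-Cre together with a floxed Cosmc allele on their single X chromosome (Podo-Cre; Cosmc Y/flox) and were 35, 34, 31 and 30 days old in the order of their numbers 1 to 4. The 5 controls were of mixed genotype. Podo-Cre and an intact allele (Podo-Cre; Cosmc Y/+) were combined in controls 1, 4 and 5, aged 35, 30 and 30 days, control 2 had the floxed allele and no Cre (Cosmc Y/flox) at 34 days, and control 3 had neither (Cosmc Y/+) at 31 days. Cosmc, listed as C1galt1c1, encodes the chaperone of the enzyme that extends mucin-type O-glycans. Podo-Cre acts in podocytes, the epithelial cells on the outside of the capillary, so endothelial cells in these animals are not the cells in which the allele is meant to be lost, and the glomerular preparation holds them together with podocytes, mesangial cells and other cells.

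Glomerular endothelial cells are flattened and pierced by fenestrae, and they depend on growth factors such as VEGF-A from the podocytes across the basement membrane. In the adult mouse most of their fenestrae lack the diaphragms that PLVAP forms in other fenestrated capillaries, and in the kidney EHD3 is a marker of this endothelium. VE-cadherin (Cdh5) and PECAM-1 are shared by endothelia throughout the body, the SoxF factors SOX17 and SOX18 act in vessel development, and GATA5 and TBX3 are transcription factors enriched in the glomerular tuft endothelium. Endothelial nitric oxide synthase (Nos3) makes the vasodilator nitric oxide, and von Willebrand factor (Vwf) is a clotting protein stored in Weibel-Palade bodies and is low in most capillary beds.

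Recovered read totals ranged from 31.5 to 58.1 M per library. The value of Cosmc itself was 1385 to 1552 normalized read counts in controls and 751 to 1123 in Cosmc KO libraries, a log2 fold change of -0.63 (limma, Benjamini-Hochberg adjusted p = 0.011). Values throughout are normalized read counts, that is, reads per gene divided by the authors by one size factor per library. Across all genes tested, 1298 (7.74%) were called between the groups at an adjusted p under 0.05, 698 higher (4.16%) and 600 lower (3.58%) in Cosmc KO. Podocyte marker scores (the mean log2(value + 1) of 20 genes) were 15.02 to 15.57 in controls and 13.70 to 15.07 in Cosmc KO libraries. Proximal tubule scores (20 genes) were 10.03 to 12.38 and 10.86 to 13.60. Cosmc KO 2 and 3 had the lowest podocyte scores of the 9 libraries and the highest tubule scores. The endothelial share of the tissue was assessed with 23 general endothelial genes other than the 10, whose score was 13.15 to 13.42 in controls and 13.21 to 13.53 in Cosmc KO, overlapping ranges. In bulk tissue, fewer cells of a type and less RNA per cell cannot be told apart.

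None of the 10 endothelial identity genes was called between Cosmc KO and control glomeruli (limma, 0 of 10, against 7.74% of all genes), and for none were the 2 groups' libraries separate, which was the case for 2003 genes (11.9%) overall. At an unadjusted p under 0.05 there were 3, Plvap, Tbx3 and Vwf, beside 4603 of the 16764 genes tested. These 3 are also the ones called under some alternatives: Vwf in the paired fit and with age as a factor, Tbx3 with scaling on general endothelial genes, and both Plvap and Tbx3 without Cosmc KO 1. The edgeR quasi-likelihood test and DESeq2 on the recovered reads also called 0 of 10, with 2 and 4 at an unadjusted p under 0.05. In the authors' deposited table, where 2699 of 16866 genes (16%) pass an adjusted p of 0.05, none of the 10 passes, and the lowest adjusted p among them is 0.103, for Pecam1. Log2 fold changes (of Cosmc KO relative to control, computed on log2(value + 1)) ran from -0.97 for Vwf to 0.31 for Plvap, with 5 positive, 5 negative and a median of 0.05, beside a median of 0.00 over all genes tested. The 95% intervals bound how large a difference these 9 libraries leave room for: apart from Vwf, no interval reached below 0.71 of the control level or above 1.54 times it.

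**Figure D1:**
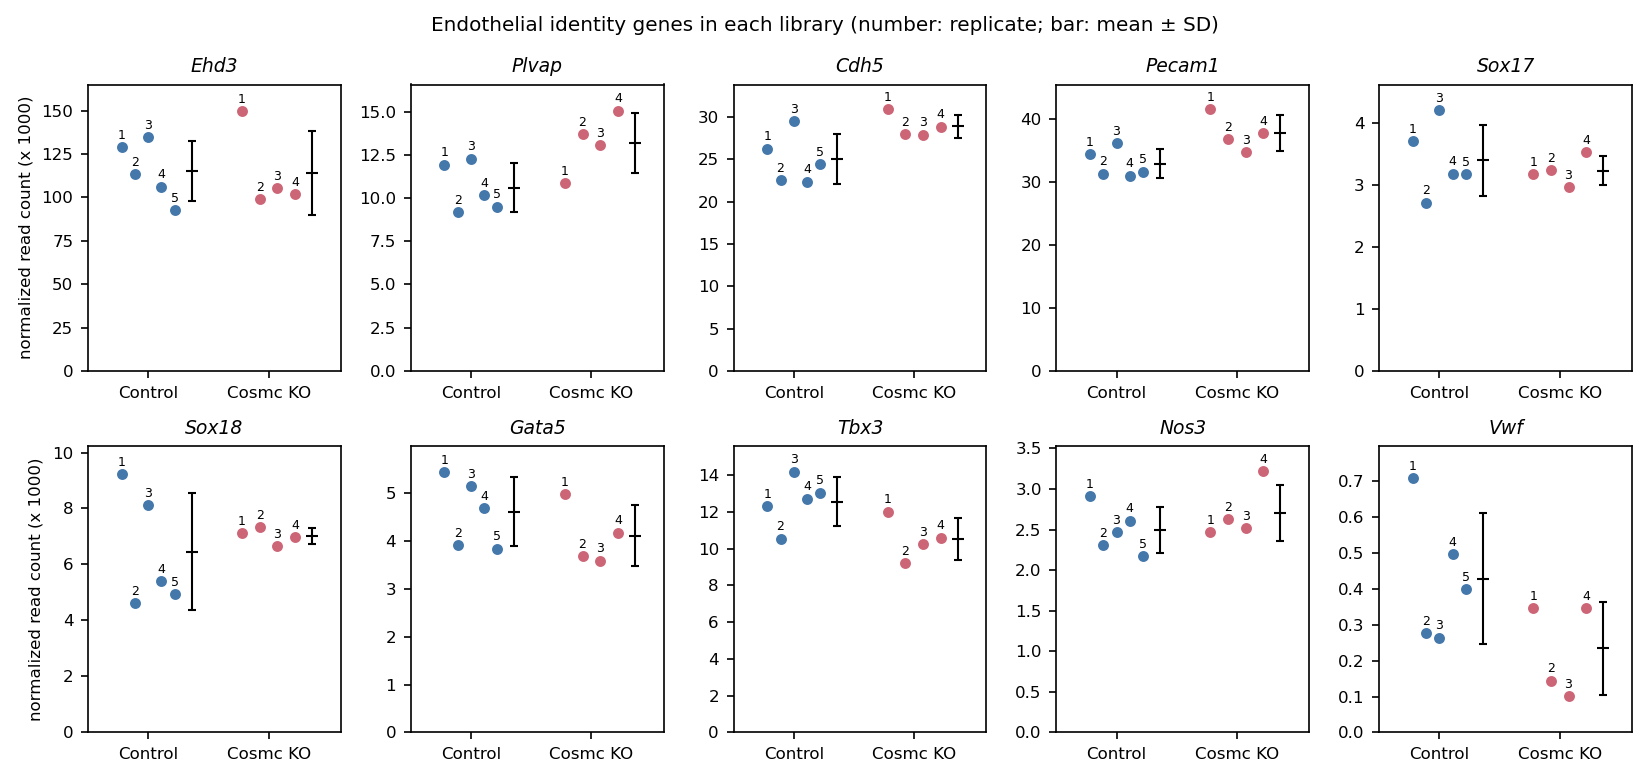
Normalized read count (vertical axis, scaled as labelled, from 0) of each of the 10 genes in each library, with the replicate number above each point and the mean ± SD of 5 controls (blue) and 4 Cosmc KO (red) libraries as bars. The groups overlap in every panel, and Ehd3 in Cosmc KO 1 (149920) and Vwf in Cosmc KO 2 and 3 (144 and 101) stand away from the rest of their group.

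Ehd3 (ENSMUSG00000024065.8) lies on the plus strand of chromosome 17, at 73804134 to 73832094 of GRCm38 in the GENCODE annotation, and encodes a membrane-shaping ATPase of endosomal recycling. Its values were 129019, 113480, 134798, 106246 and 92663 in controls 1 to 5. In Cosmc KO 1 to 4 they were 149920, 98960, 105424 and 102016. Cosmc KO 1 was the highest of the 9 libraries, and the other 3 Cosmc KO values lay inside the range of the controls. The group means were 115241 ± 17074 (SD, n = 5) and 114080 ± 24039 (SD, n = 4), a log2 fold change of -0.02 ± 0.19 (SE) with a 95% interval of -0.44 to 0.39 (limma, adjusted p = 0.947). The sign turned when control 1 or 3 or Cosmc KO 2, 3 or 4 was left out, with a log2 fold change of at most 0.04. Without Cosmc KO 1 it stayed negative, at -0.16.

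Reference sequence just upstream of the RefSeq start site was available for only 2 of the 10 genes, Ehd3 and Gata5. Both are shown, and both are markers of the glomerular tuft. Their deviations from the group means over the 9 libraries had a Pearson r of 0.83. That r was not particular to them, as Pecam1 had 0.83 with Ehd3 and 0.84 with Gata5. The windows hold 250 bases in GRCm38.p6, at chr17:73804591-73804840 on the plus strand for Ehd3 and chr2:180334680-180334929 on the minus strand for Gata5, each written 5′ to 3′ in the gene's direction. The RefSeq and GENCODE start sites differ. The Ehd3 window lies inside the GENCODE gene, which starts at 73804134, and so is not upstream of the GENCODE start. The Gata5 window overlaps the edge of the GENCODE gene, at 180334699. Capitals mark matches on either strand to any of 6 short motifs.
Ehd3: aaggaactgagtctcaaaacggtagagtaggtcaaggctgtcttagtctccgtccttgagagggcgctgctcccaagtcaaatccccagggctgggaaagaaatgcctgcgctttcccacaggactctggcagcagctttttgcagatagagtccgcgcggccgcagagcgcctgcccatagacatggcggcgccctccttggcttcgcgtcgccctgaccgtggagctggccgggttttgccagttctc
Gata5: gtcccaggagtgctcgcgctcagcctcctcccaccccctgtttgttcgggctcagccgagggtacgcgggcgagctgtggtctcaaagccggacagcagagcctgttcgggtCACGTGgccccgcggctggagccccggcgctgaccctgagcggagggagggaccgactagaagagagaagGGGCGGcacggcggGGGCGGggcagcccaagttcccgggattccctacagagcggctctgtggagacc
The motifs were the ETS core CCGGAA, the GATA motif AGATAA, the SOX motif ACAATG, the E-box CANNTG, the GC box GGGCGG and the TATA box TATAAA. The Gata5 window held 1 E-box and 2 GC boxes, which did not overlap one another, and the Ehd3 window held no match to any of the 6. Of 32851 RefSeq promoter windows of this length, 66.2% held an E-box, 32.7% a GC box, 12.4% a TATA box, 12.0% the ETS core, 10.7% the SOX motif and 9.99% the GATA motif. A match describes letters and not a bound site.

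Plvap (chromosome 8, 71497765 to 71511752, minus strand) encodes the diaphragm protein of fenestrae and caveolae. Its values were 11929, 9173, 12268, 10160 and 9501 in controls 1 to 5. Cosmc KO 1 had 10858, inside the control range, whereas Cosmc KO 2, 3 and 4, with 13707, 13055 and 15045, were above every control. The means were 10606 ± 1413 (SD, n = 5) and 13167 ± 1748 (SD, n = 4). The log2 fold change of 0.31 ± 0.12 (SE; 95% interval 0.04 to 0.59) was not called (limma, adjusted p = 0.142). It was called when Cosmc KO 1 was left out, at 0.40 (limma, adjusted p = 0.030), a fit in which 4884 genes (29.1%) were called. With the tubule score as a covariate it was 0.23 (limma, adjusted p = 0.422).

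Plvap was also read against Ehd3 within each library, a ratio chosen after the values of both had been seen and so given with no test. Plvap was 9.25, 8.08, 9.10, 9.56 and 10.3% of Ehd3 in controls 1 to 5. It was 7.24% in Cosmc KO 1, the lowest of the 9 libraries, and 13.9, 12.4 and 14.7% in Cosmc KO 2, 3 and 4, the 3 highest. Those same 3 libraries had the highest proximal tubule scores (13.60, 13.60 and 12.68, against 10.86 in Cosmc KO 1 and at most 12.38 in controls). They also had the lowest podocyte scores (13.70, 14.24 and 14.61). Control 5 had the highest ratio of the 5 controls and the lowest tubule score (10.03). Control 2 had the lowest ratio of the 5 controls and the highest tubule score (12.38). Summed over the 20 tubule markers, the values were 61591 to 301659 in controls and 95830 to 854951 in Cosmc KO. Peritubular capillaries carry PLVAP too, and the part of vessels outside the tuft in the ratio was not tested.

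Cdh5 (chromosome 8, 104101625 to 104144511, plus strand) encodes VE-cadherin, the adhesion molecule of endothelial adherens junctions. Controls 1 to 5 had 26275, 22537, 29561, 22391 and 24417, and Cosmc KO 1 to 4 had 30914, 27964, 27945 and 28865. All 4 Cosmc KO values were above 4 of the 5 controls, and control 3 lay among them. Cdh5 had a log2 fold change of 0.21 ± 0.11 (SE; 95% interval -0.02 to 0.45; limma, adjusted p = 0.213), which did not pass the threshold in any alternative run.

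Pecam1 (chromosome 11, 106654217 to 106750628, minus strand) encodes the junctional immunoglobulin-family protein CD31. It had 34455, 31331, 36151, 31008 and 31638 in controls 1 to 5, the least variable of the 10 in the controls at a coefficient of variation of 6.90%. In Cosmc KO 1 to 4 it had 41585, 36852, 34735 and 37783. Control 3 was above Cosmc KO 3, and the other 4 controls were below all 4 Cosmc KO values. For Pecam1 the log2 fold change was 0.20 ± 0.10 (SE; 95% interval -0.02 to 0.42; limma, adjusted p = 0.222), again not called in any alternative run.

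Sox17 (chromosome 1, 4490931 to 4497354, minus strand), a SoxF transcription factor associated with arterial endothelium, had 3701, 2712, 4203, 3183 and 3175 in controls 1 to 5. All 4 Cosmc KO values, 3173, 3238, 2965 and 3527, lay within that range. Its log2 fold change was -0.06 ± 0.12 (SE; limma, adjusted p = 0.771). Sox17 shares 804 exonic bases with an annotated transcript of the opposite strand, Gm37587, for which there was no value.

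Sox18 (chromosome 2, 181669836 to 181671640, minus strand), a SoxF factor of vascular and lymphatic development, spread more widely among controls than any other of the 10 but Vwf. Controls 1 and 3 had 9232 and 8116, while controls 2, 4 and 5 had 4629, 5393 and 4940. The 4 Cosmc KO libraries, at 7110, 7329, 6658 and 6980, fell in the gap between these values. The coefficient of variation was 32.1% in controls and 4.00% in Cosmc KO, a difference in spread that was not tested. The log2 fold change was 0.18 ± 0.20 (SE; limma, adjusted p = 0.587).

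For Gata5 (chromosome 2, 180325133 to 180334699, minus strand), the values in controls 1 to 5 were 5451, 3913, 5159, 4698 and 3847. Those of the 4 Cosmc KO libraries were 4989, 3682, 3597 and 4179. Cosmc KO 2 and 3 were just below the lowest control, and the other Cosmc KO libraries were inside the control range. Each Cosmc KO library was below the control of the same number and age, in 4 of 4 pairs. How many of all genes differ in the same direction in 4 of 4 pairs was not counted, here or for the genes below. The log2 fold change was -0.16 ± 0.14 (SE; limma, adjusted p = 0.449), and -0.23 ± 0.10 (SE) in the paired fit, with replicate number as a block (limma, adjusted p = 0.145). Gata5 shares 258 exonic bases with its antisense transcript Gata5os, whose own level was 35.3 ± 4.00 (SD, n = 5) in controls and 28.8 ± 9.01 (SD, n = 4) in Cosmc KO.

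Tbx3 (chromosome 5, 119670669 to 119684724, plus strand), a T-box repressor, had 12301, 10553, 14191, 12719 and 13056 in controls 1 to 5. Cosmc KO 1 to 4 had 12014, 9230, 10247 and 10594. Cosmc KO 2 and 3 were below every control, Cosmc KO 4 was just above control 2, and Cosmc KO 1 lay among the controls. The means were 12564 ± 1325 (SD, n = 5) and 10521 ± 1151 (SD, n = 4), and the value was lower in Cosmc KO in 4 of 4 pairs. The log2 fold change of -0.26 ± 0.11 (SE; 95% interval -0.49 to -0.02) was not called (limma, adjusted p = 0.156).

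Tbx3 passed the threshold in 2 of 23 alternatives. It was called at -0.32 without Cosmc KO 1 (limma, adjusted p = 0.043). With each library scaled on the 23 general endothelial genes it was called at -0.35 ± 0.09 (SE; limma, adjusted p = 0.037), where 1827 genes (10.9%) were called and the median of all genes shifted to -0.09. It was -0.07 with the podocyte score as a covariate and -0.16 with the tubule score. The antisense transcript Tbx3os1, which shares 115 exonic bases with Tbx3, was at 170 ± 36.4 (SD, n = 5) and 114 ± 19.0 (SD, n = 4). Because the strand setting of the counting was not given in the sources used here, reads of the overlapping stretches could belong to either transcript.

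Nos3 (chromosome 5, 24364810 to 24384474, plus strand) had 2913, 2304, 2470, 2607 and 2172 in controls 1 to 5. The Cosmc KO libraries had 2465, 2628, 2513 and 3215. Cosmc KO 4 was the highest of the 9 libraries and the other 3 were within the control range. Nos3 had a log2 fold change of 0.12 ± 0.11 (SE; 95% interval -0.13 to 0.36; limma, adjusted p = 0.506). Its exons share 294 bases with Atg9b and 1040 with Gm15587 on the opposite strand, which were low by comparison, at 76.8 ± 15.9 and 24.7 ± 7.85 (SD, n = 5) in controls.

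Vwf (chromosome 6, 125546774 to 125686679, plus strand) had the lowest values and the widest spread of the 10. Controls 1 to 5 had 709, 276, 264, 496 and 399, and the Cosmc KO libraries 1 to 4 had 345, 144, 101 and 346, from 132 to 670 recovered reads per library. Cosmc KO 2 and 3 were below every control, whereas Cosmc KO 1 and 4 lay above controls 2 and 3. The means were 429 ± 183 (SD, n = 5) and 234 ± 130 (SD, n = 4), and the log2 fold change was -0.97 ± 0.43 (SE; 95% interval -1.91 to -0.02; limma, adjusted p = 0.175). Vwf was lower in Cosmc KO in 4 of 4 pairs, by -1.03, -0.93, -1.38 and -0.52 on the log2 scale. With the replicate number as a block, control 5 being left out, the same log2 fold change of -0.97 had an SE of 0.17 and was called (limma, adjusted p = 0.006), in a fit that called 2790 genes (16.6%). Vwf was also called with age as a factor, at -0.88 (limma, adjusted p = 0.010), where 3652 genes (21.8%) were called. Same-numbered animals share an age, so this fit groups the libraries as the block does, with control 5 added, and is not a separate check.

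In the unpaired fit the size of the Vwf difference changed when 2 libraries were left out and when a score was added as a covariate. Without Cosmc KO 2 and 3 it was -0.21 (limma, adjusted p = 0.845), although the other 2 pairs also differed, by -1.03 and -0.52. With the podocyte score as a covariate it was 0.17 ± 0.43 (SE; limma, adjusted p = 0.899), and with the tubule score it was -0.36 ± 0.34 (SE; limma, adjusted p = 0.633). The podocyte score itself differed between the groups (15.02 to 15.57 in controls, 13.70 to 15.07 in Cosmc KO). A fit with that score therefore cannot tell the score apart from the group. Megakaryocytes and platelets carry VWF too, and the 8 platelet markers, none of which was called by limma (3 at an unadjusted p under 0.05, and 1 called by DESeq2 and 0 by edgeR), had a median log2 fold change of 0.70 and a sum of 488 to 645 in controls and 589 to 956 in Cosmc KO. Over all genes, 4603 of 16764 had an unadjusted p under 0.05 (limma). The part of these cell mixtures in the Vwf values was not tested.

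**Figure D2:**
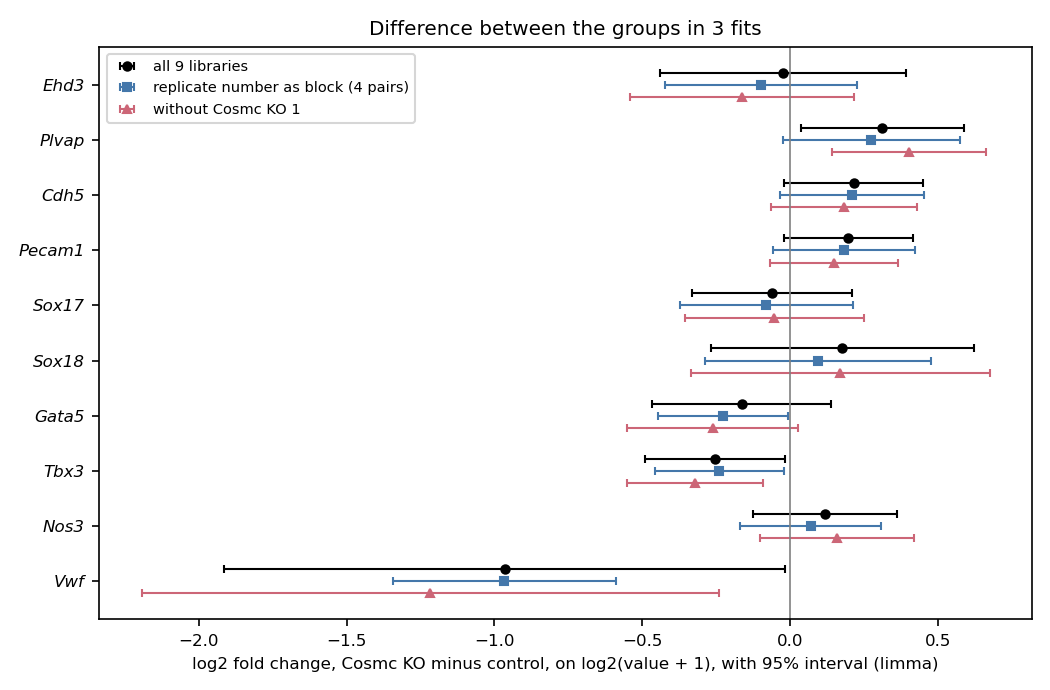
Log2 fold change of each gene (horizontal axis, Cosmc KO relative to control, log2(value + 1), points with 95% intervals) in the fit of 9 libraries (black circles), the fit of 4 same-numbered pairs (blue squares) and the fit without Cosmc KO 1 (red triangles). The Vwf interval runs from -1.91 to -0.02 over all libraries and is narrower in the paired fit, while the point estimates of the other genes stay between -0.32 and 0.40 and their intervals run from -0.55 to 0.67.

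The controls of different genotype gave a further view of Vwf. It was 535 ± 158 (SD, n = 3) in the Cre-carrying controls and 270 ± 8.23 (SD, n = 2) in the 2 without Cre. These values do not overlap, but how many of all genes separate these 3 and 2 libraries was not counted. The log2 difference, Cre-carrying minus Cre-free, was 0.94 ± 0.25 (SE; limma, adjusted p = 0.403). None of 16084 genes was called in that comparison (0%; 1283 at an unadjusted p under 0.05), and of the 10 genes Vwf was the 1 with an unadjusted p under 0.05. The next in size was Ehd3, at -0.19 ± 0.28 (SE; limma, adjusted p = 0.958), and the other 8 lay between -0.09 and 0.09. The Cre-free controls were also 34 and 31 days old while the Cre-carrying were 35, 30 and 30, and a floxed allele was present in 1 of the Cre-free. Of the 5 controls, the 2 without Cre had the highest tubule scores (12.38 and 12.36) and the lowest podocyte scores (15.07 and 15.02). These differences cannot be told apart from that of Cre. Against the Cre-carrying controls alone, Vwf in Cosmc KO was at -1.34 ± 0.46 (SE; limma, adjusted p = 0.163) and Ehd3 at 0.05.

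Per kb of exon, the 10 genes kept the same order in both groups. Ehd3 led at 17573 ± 2604 normalized read counts per kb (SD, n = 5 controls), rank 49 of 16389 genes with a length. Cdh5 followed at 5957 ± 710, Plvap at 5338 ± 711 and Pecam1 at 5285 ± 365, 3 neighbours whose control ranges overlapped. With the length of the longest coding transcript in place of all exons, Pecam1 moved to second place at 9566. Sox18 (3989 ± 1281) overlapped with the genes above it, Tbx3 (1897 ± 200) and Gata5 (1408 ± 220) overlapped at the edges of their ranges, and Sox17 (711 ± 120) overlapped with Nos3 (603 ± 69.4). Vwf was far below at 26.7 ± 11.4, on the 20.9th percentile of all genes. In controls, the level per kb of every gene of the 10 except Vwf exceeded that of at least 78% of all genes.

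**Figure D3:**
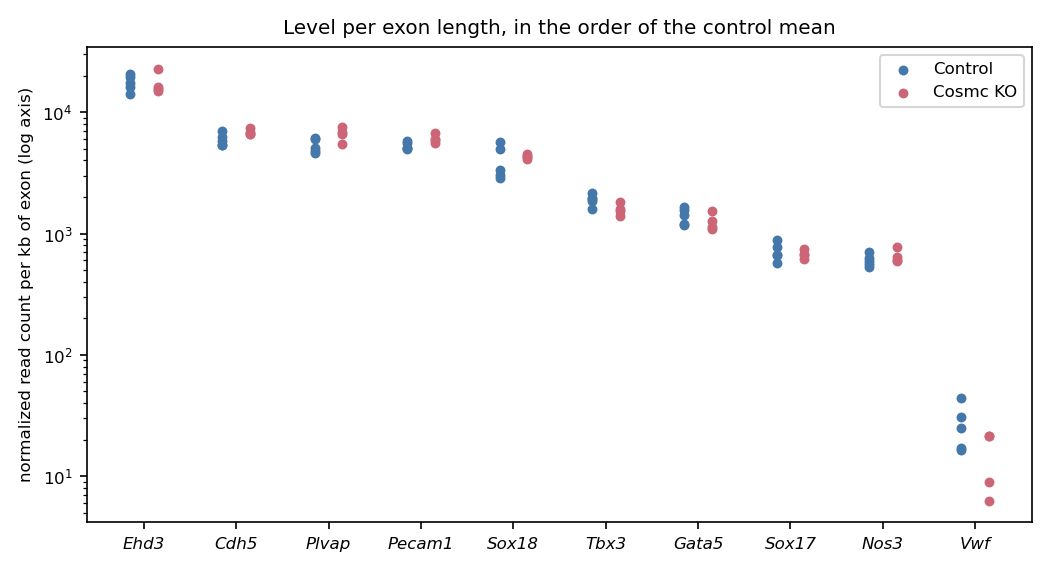
Normalized read count per kb of exon (vertical log axis) of each gene in the 5 control (blue) and 4 Cosmc KO (red) libraries, in the order of the control mean. Ehd3 is on its own at the top (17573 in controls), Cdh5, Plvap and Pecam1 lie together, and Vwf is lowest (26.7).

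Deviations from the group means were compared between the genes over the 9 libraries, as a description with no test. They share each library's depth, cell mixture and scaling. Cdh5 and Pecam1, the junctional pair, had an r of 0.88, and Pecam1 had 0.84 with Gata5 and 0.83 with Ehd3. Sox17 had an r of 0.84 with Cdh5, 0.83 with Sox18 and 0.79 with Plvap. Plvap and Ehd3 did not move together, at an r of -0.05, and Plvap had 0.74 with Nos3. Over genes with a mean value of at least 100, those nearest to each were Arhgap31 (0.98) for Ehd3, Rbck1 (0.97) for Plvap, Zfp422 (0.96) for Cdh5 and Grap (0.98) for Pecam1. They were Rasip1 (0.96) for Sox17, Hdac5 (0.98) for Sox18, Rhoj (0.96) for Gata5, Stx2 (0.95) for Tbx3, Fbxl14 (0.94) for Nos3 and Wdr45b (0.98) for Vwf. These are the nearest of a great many genes over 9 libraries.

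Genes around each of the 10 were read from lists. Of 8 other glomerular endothelial genes, 1 was higher, 1 lower and 6 were not called, with a median log2 fold change of -0.11 (2 higher and 2 lower in the paired fit, beside 16.6% of all genes). Sost, which encodes the secreted WNT inhibitor sclerostin, had 158 to 280 in controls and 618 to 1103 in Cosmc KO and rose by 2.06 ± 0.23 on the log2 scale (SE; limma, adjusted p = 0.0011), a call kept in each of the 23 alternatives. Mapt, the microtubule protein tau, fell by 0.77 (limma, adjusted p = 0.044), a call lost in 12 of 23 alternatives, among them leaving out any library but Cosmc KO 1 (limma, adjusted p up to 0.125). Of the 23 general endothelial genes, 4 were higher and 1 lower, with a median of 0.12, beside 4.16% higher and 3.58% lower over all genes. None was called with the podocyte score as a covariate or without Cosmc KO 2 and 3, and 1, a higher one, was called against the Cre-carrying controls alone. Those 3 fits called few genes of any kind, 374, 305 and 438 of 16764. Eng, the TGF-beta co-receptor endoglin, rose by 0.86 (limma, adjusted p = 0.0054), and its range of 40484 to 56278 in controls was separate from 72388 to 88958 in Cosmc KO. Its call was lost with the podocyte score as a covariate and without Cosmc KO 2 and 3 (limma, adjusted p up to 0.072). Cldn5, the tight junction claudin that podocytes also express, fell by 0.80 (limma, adjusted p = 0.023), a call lost when any of controls 1 and 5 and Cosmc KO 2 and 3 was left out (limma, adjusted p up to 0.080). Gpihbp1, the anchor of lipoprotein lipase on capillaries, rose by 0.79 and Egfl7, a secreted endothelial factor, by 0.52 (limma, adjusted p = 0.037 and 0.023). Both lost their calls when any of controls 1 and 4 and Cosmc KO 2 and 4 was left out, and Gpihbp1 also without control 2 or Cosmc KO 3 (limma, adjusted p up to 0.107 and 0.062).

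Lists of relatives and partners of the 10 were read against the 7.74% called over all genes. Of 18 other endothelial transcription factors, Tbx2 rose by 0.60 (limma, adjusted p = 0.027) and Foxc2, a forkhead factor also made by podocytes, fell by 0.84 (limma, adjusted p = 0.035). The list's median was 0.08. None of the 3 other EHD genes (1 at an unadjusted p under 0.05), none of 5 caveola and fenestra genes (0 at an unadjusted p under 0.05) and none of 13 nitric oxide pathway genes (7 at an unadjusted p under 0.05) was called by limma, with medians of 0.12, -0.05 and 0.21. Over all genes, 4603 of 16764 had an unadjusted p under 0.05 (limma). For the nitric oxide list, edgeR called 1 and DESeq2 4, and neither called a gene of the other 2 lists. Of 12 junction partners of Cdh5, Cgnl1 (paracingulin) fell by 0.68 (limma, adjusted p = 0.020). Of 12 arterial genes, the Notch ligand gene Dll4 fell by 0.54 (limma, adjusted p = 0.039), and the list's median was -0.28. Of 9 venous and lymphatic genes, the semaphorin and VEGF co-receptor gene Nrp2 rose by 0.76 (limma, adjusted p = 0.033) and Reln fell by 0.96 (limma, adjusted p = 0.041). In the paired fit 3 junction partners and 2 arterial genes were called lower, beside 16.6% of all genes called. Of the nitric oxide pathway genes, 2 were called higher and 1 lower in that fit. When any single library but Cosmc KO 1 was left out, 523 to 828 genes were called over all, against 1298 with all libraries. Calls of these lists were also lost in such fits. Reln lost its call without any library but Cosmc KO 1, and Tbx2 without any but Cosmc KO 1 and control 3 (limma, adjusted p up to 0.103 and 0.089). Foxc2 lost it without control 1, 4 or 5 or Cosmc KO 2 or 3, and Dll4 without these or control 3 (limma, adjusted p up to 0.096 and 0.108). Nrp2 lost it without control 2 or 3 or Cosmc KO 2, 3 or 4 (limma, adjusted p up to 0.086), and Cgnl1 without control 5 (limma, adjusted p = 0.050).

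Genes of endothelial activation, by contrast with the 10, included called members, a contrast that was not itself tested. Of 12 genes tested, 7 were higher in Cosmc KO and none was lower, with a median log2 fold change of 0.89, beside 4.16% called higher among all genes. Selp (P-selectin) was low and passed the filter on low values through the Cosmc KO libraries alone, and without it the count was 6 of 11. Edn1, the gene of the vasoconstrictor endothelin-1, had 665, 589, 736, 684 and 570 in controls 1 to 5. It had 2481, 2023, 1838 and 1370 in Cosmc KO 1 to 4, each above every control. Edn1 rose by 1.54 ± 0.16 on the log2 scale (SE; limma, adjusted p = 0.00077).

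Angpt2, the TIE2 ligand released from Weibel-Palade bodies, had 3062 to 3826 in controls and 5039 to 7731 in Cosmc KO and rose by 0.80 ± 0.13 (SE; limma, adjusted p = 0.0055). Calls for Edn1 and Angpt2 were kept in each of 23 alternatives. The adhesion molecules for leukocytes, Vcam1 (1.82), Sele (1.69) and Icam1 (0.98), and the peptide gene Apln (1.78), were called with limma adjusted p-values of 0.016, 0.038, 0.019 and 0.025. Without Cosmc KO 2 each of these 4 lost its call, Icam1 also without Cosmc KO 4, and Apln and Sele also without Cosmc KO 3 or 4, control 1 or control 2, and Sele without control 3 (limma, adjusted p up to 0.102). Selp lost its call without control 2 or 5 or Cosmc KO 2, 3 or 4. The list's count fell to 2 with the podocyte score as a covariate, without Cosmc KO 2, without Cosmc KO 2 and 3 together, or against the Cre-carrying controls alone. In that order, these fits called 374, 595, 305 and 438 of 16764 genes in either direction, against 1298 in the main fit. The list's count was 3 without Cosmc KO 4 and 4 without Cosmc KO 3 or without control 2, where 762, 523 and 785 genes were called. The 5 genes not called were Thbd (0.23), Procr (0.20), Tfpi (-0.04), Ece1 (0.07) and Esm1 (-0.59). Of 10 Weibel-Palade body and VWF-associated genes, Angpt2, Selp and Stab2 were called higher, the last from 130 ± 57.1 (SD, n = 5) to 904 ± 295 (SD, n = 4), whereas Vwf was lower in value and not called. Without Selp the count was 2 of 9, beside 4.16% called higher over all genes, and Stab2 lost its call with the podocyte score as a covariate (limma, adjusted p = 0.062).

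**Figure D4:**
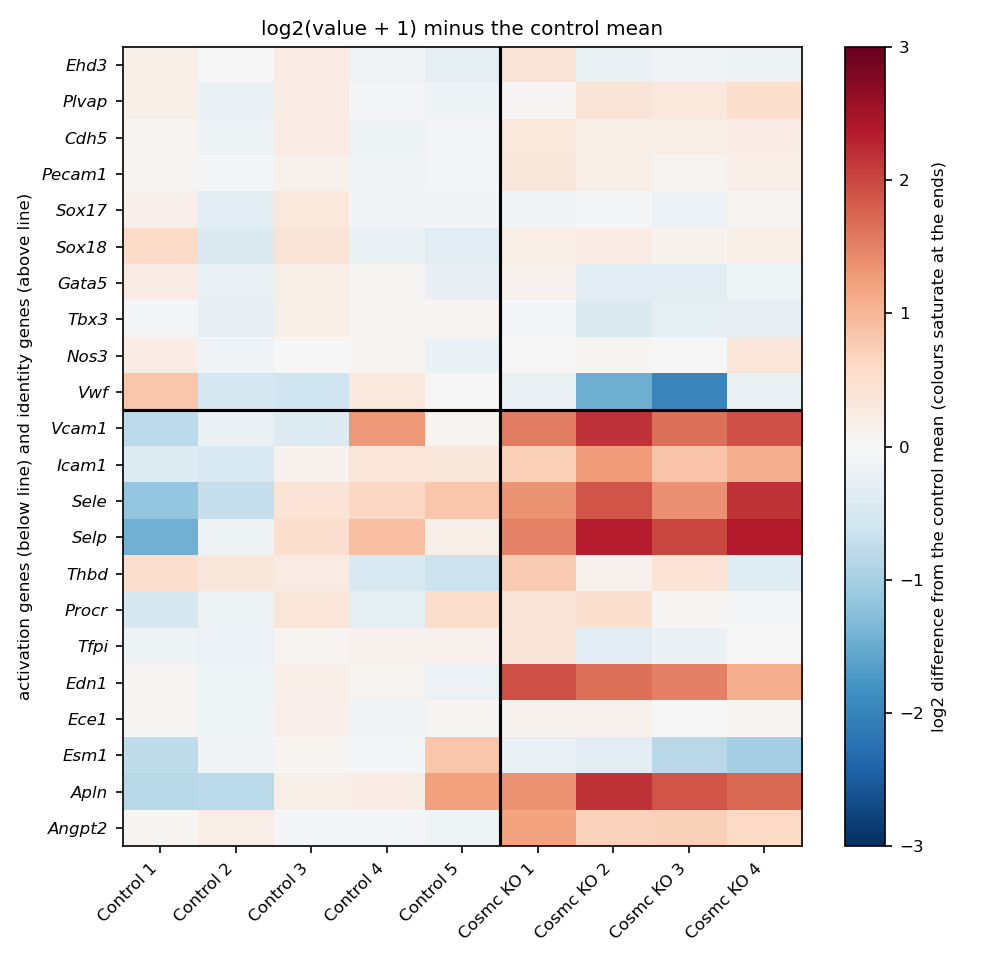
Log2(value + 1) minus the control mean (colour) of the 10 identity genes (above the line) and 12 activation genes (below the line) in each library. The 7 activation genes called higher are above the control mean in each of the 4 Cosmc KO libraries, the smallest difference being 0.59 (Angpt2). Among the identity genes the strongest colours are those of Vwf in Cosmc KO 2 and 3 (-1.46 and -1.98).

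Markers of other cells moved beside these genes. Leukocytes and other glomerular cells make some of the activation genes, and 4 of 14 leukocyte markers were higher and none lower, with a median of 0.65 and a sum of 6278 to 16735 in controls and 13229 to 17535 in Cosmc KO. Of 20 podocyte markers 9 were lower and none higher (median -0.89), of 15 mesangial markers 4 were higher (median 0.08), and of 10 parietal epithelial markers 5 were higher and 1 lower (median 0.83). Over all genes, 4.16% were called higher and 3.58% lower in this fit, and 4603 of 16764 had an unadjusted p under 0.05. None of 20 proximal tubule markers was called by limma (3 at an unadjusted p under 0.05, with edgeR calling 0 and DESeq2 3), but all 20 were positive, with a median of 1.40. None of 5 red cell markers was called by limma (5 at an unadjusted p under 0.05, with edgeR calling 0 and DESeq2 2), with a median of -1.40. The paired fit called 16.6% of all genes. It called 16 podocyte and 4 red cell markers lower, and 11 leukocyte and 17 proximal tubule markers higher. Of mesangial markers it called 4 higher and 2 lower, and of parietal epithelial markers 7 higher and 1 lower. No marker was at 0 in any library. Their part in the endothelial values was not tested.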

How the data were processed

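Glomerular poly(A) RNA was sequenced as paired reads. Alignment and counting, per the submitters' processing notes, involved Subread 1.5.2, featureCounts, STAR 2.5.2b and DESeq2 with build GRCm38; the annotation, filters and strand setting are not given in the sources used here. Per the file headers and the values, the deposited sample columns and their mean hold a signal: reads per gene, which the authors scaled by one size factor for each library. The authors' deposited columns also give a log2 fold change with its standard error, a Wald score and p-values. Within every library 100% of values were whole multiples of one step (tolerance 0.01), from which reads were recovered; for control 3 that step is so near 1 that the values alone do not show it. The most similar pair of libraries differed by more than sampling noise, with a chi-square of 26.1 times its degrees of freedom.

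Because the values are scaled, the test was limma 3.58.1 in R 4.3.3 on log2(value + 1) with a trend of the variance on the mean, two-sided, over the 16764 genes that reached 10 in 4 or more libraries, with Benjamini-Hochberg adjustment over all of them and calls at 0.05. The pseudocount understates changes of low genes. The Cre comparison used the 5 controls (16084 genes). The exact permutation test planned for a gene removed by the filter was not needed. Tests were checked on simulated data. edgeR 4.0.16 and DESeq2 1.42.0 were run on recovered reads. Other alternatives were TMM rescaling, scaling on general endothelial genes, pseudocounts of 0.5 and 4, no filter or 1 CPM in 4 or more libraries, tubule or podocyte score as covariate, age, Cre-carrying controls only, and leaving out libraries.

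Same-numbered animals share an age. Correlations of their deviations were 0.54, 0.51, 0.34 and 0.27 for numbers 1 to 4, all above 0.1, and the paired fit is used on that ground; numbers 3 and 4 of Cosmc KO correlated more with a control of another number, and the labels do not mention litters. Each library is labelled as a separate sample. Positions, exon lengths and overlaps come from GENCODE M21 (GRCm38), and the promoter windows from RefSeq.

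The 10 genes and the 18 lists were chosen with earlier results of these data known, so their direction is not independent evidence. Genes were named as all 10, up to 4 called members of a list by fold change or otherwise its 2 most abundant, and the nearest genes by correlation of deviations; from the lists, those the text turns on are printed, the remaining activation genes having been added after their values were seen.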

Additional observations from a re-analysis of the deposited data

Results flagged for a closer look

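Among 41 genes, each examined in both groups (82 groups), 3 had a library whose gap to the nearest other exceeded Dixon's 95% critical value (0.829 for 4 libraries and 0.71 for 5); chance flags about 1 in 20 groups. Ehd3 was 149920 in Cosmc KO 1, against 98960 to 105424 in the other Cosmc KO libraries. Ptrf, the caveola coat gene cavin-1, was 21726 in control 1, against 14013 to 14722 in the other controls. Vcam1 was 2270 in control 4, against 533 to 977 in the other controls, and the lowest Cosmc KO value was 2685.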

How the results depend on the processing

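Across 23 alternatives, Cdh5, Pecam1, Sox18 and Nos3 kept their direction and were never called. The count of 10 identity genes called was 1 with scaling on general endothelial genes, 1 with the replicate block, 1 with age as a factor and 0 to 2 when libraries were left out one at a time. The block changed the call of Vwf and of no other of the 10. The sign of Ehd3 turned with the tubule score (0.051), the podocyte score (0.23), Cre-carrying controls only (0.054) and without Cosmc KO 2 and 3 (0.11), and its leave-one-out range was -0.16 to 0.038; that of Sox17 was -0.14 to 0.021. With the podocyte score as a covariate Gata5 (0.10), Vwf (0.17), Ehd2 (0.15), Ptrf (0.34) and Tfpi (0.31) also turned. With the tubule score Ptrf was 0.13 and Tfpi 0.15, without Cosmc KO 2 and 3 Ptrf was 0.081, Sdpr 0.0088 and Tfpi 0.20, and the leave-one-out ranges of Ptrf and Tfpi were -0.16 to 0.067 and -0.17 to 0.062. Ece1 was -0.022 with scaling on general endothelial genes. The causes were not tested.

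Activation genes called higher numbered 2 with the podocyte score, 2 with Cre-carrying controls only, 2 without Cosmc KO 2 and 3, and 2 to 7 in leave-one-out fits; Selp had no value under the filter of 1 CPM. Over all genes, calls numbered 2699 (DESeq2), 2790 (replicate block), 782 (tubule score), 374 (podocyte score), 3652 (age), 438 (Cre-carrying controls only), 305 (without Cosmc KO 2 and 3) and 523 to 4884 in leave-one-out fits, highest without Cosmc KO 1.

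Between Cre-carrying and Cre-free controls, 1 gene was called with no filter and 0 to 169 in leave-one-out fits, highest without control 4; without control 2 or 3 the lone Cre-free sample is assumed to vary like the others. Leave-one-out ranges were -0.23 to 0.19 for Plvap, -0.28 to 0.11 for Cdh5, -0.16 to 0.045 for Pecam1, -0.33 to 0.30 for Sox17, -0.37 to 0.44 for Sox18, -0.16 to 0.24 for Gata5, -0.16 to 0.27 for Tbx3 and -0.0034 to 0.21 for Nos3. With 5 and 4 libraries, an uncalled difference is known only to within its interval.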
